A study of Mus musculus with 6 samples.

Results

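Potassium channel genes were taken as every gene whose symbol starts with Kcn in the platform annotation of the array. There were 92 such genes among 19938 genes with a probe set of 1 symbol, and each was represented by its probe set with the highest mean. A gene was described where its log2 level reached 6 on at least 1 array among WT, Id control 1, Id control 2 and Id cKO, which left 40 of the 92. The same limit left 11708 of all genes, and these are the background for the counts, except those under the alternative settings at the end. Among the 40, Kcnd3os and Kcnmb4os2 are opposite-strand transcripts that code for no channel, and the others are channel or subunit genes. The genes nearest the limit were Kcne3 (highest level 6.02), Kcnn3 (6.03) and Kcnmb4os2 (6.08) inside it, and Kcnip3 (5.95), Kcnk7 (5.95) and Kcnk13 (5.91) outside. Of the 40, 25 reached 6 on all 4 arrays and 7 on 1 array alone. These 7 were Kcne3 and Kcne4 in Id cKO, Kcna1 and Kcne1 in Id control 2, and Kcna3, Kcnk4 and Kcnmb4os2 in WT. For such genes a difference in that array's favour is partly built into the choice. A log2 level depends on each gene's probes, so levels are compared between arrays and never between genes.

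The 6 arrays (Affymetrix Mouse Gene 1.0 ST) hold heart RNA of mice aged 6 months (postnatal day 180) in 5 groups. WT was 1 array. Id control was 2 arrays of different genotype: Id control 1 was Id1F/+Id3-/- (1 floxed and 1 wild-type Id1 allele, no functional Id3, no Cre in its label), and Id control 2 was Tie2Cre+Id1-/-Id3+/- (the Cre transgene, no functional Id1, 1 working Id3 allele). Id cKO was 1 array, Tie2Cre+Id1F/-Id3-/- (the Cre transgene, 1 floxed and 1 null Id1 allele, no functional Id3). The remaining pair, kept here as a set of its own, was 1 array of Id cKO heart given recombinant mouse IGFBP3 and 1 array of Id cKO heart left without it, both described as incubated. Id1 and Id3 encode helix-loop-helix proteins that hold E proteins away from DNA. Tie2Cre acts in endothelial cells and part of the blood lineage and not in heart muscle, where most of the channels described here work. By the label, only the floxed Id1 allele of Id cKO depends on Cre. Id3 and the other Id1 allele are lost in every cell, heart muscle included. The labels name neither the number of animals per array nor the part of the heart taken. Array numbers are names only, and no label says that arrays came from separate animals. A p-value or SE here measures no more than how far the 2 Id control arrays vary, possibly for technical reasons. These arrays differ in genotype, Cre and date code, and in atrial markers as given below, so their spread mixes such differences with noise. The limma fit used below also draws each gene's spread toward that of all genes tested. Its SE is therefore not the gene's own spread: Kcnj2 had an SD of 0.009 between the Id controls and an SE of 0.14.

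Potassium channels carry the outward current that ends each heartbeat and holds the resting potential of the muscle cell. Inward rectifiers (Kcnj) set the resting potential or open when acetylcholine acts or ATP runs low. Voltage-gated pores (Kcna, Kcnd, Kcnh, Kcnq and relatives), together with auxiliary subunits (Kcne, Kcnip), repolarise the cell, tandem-pore channels (Kcnk) leak, and calcium- or sodium-activated channels (Kcnn, Kcnm, Kcnt) answer to those ions. Lower Kcnd2 and Kcnip2 transcripts are a textbook feature of the overloaded heart.

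Id proteins act through E proteins, which bind the E-box, CANNTG, so the bases before the start are shown, with each E-box in capitals, for both subunits of the acetylcholine-activated channel and for the genes that lay highest above WT in Id cKO, Kcne3 and Kcnj8. All 4 hold an E-box, whereas Kcnd2 and Kcnh2, which differed from Id control by more than Kcnj8 did, hold none and are not shown. The sequences are the 250 bases before the first listed start in the RefSeq promoter table of GRCm38.p6, 5′ to 3′ on the gene's strand, for Kcnj3 at chr2:55435720-55435969 (+ strand), Kcnj5 at chr9:32344345-32344594 (- strand), Kcnj8 at chr6:142571615-142571864 (- strand) and Kcne3 at chr7:100176420-100176669 (+ strand), the last the first of 2 listed starts.
Kcnj3: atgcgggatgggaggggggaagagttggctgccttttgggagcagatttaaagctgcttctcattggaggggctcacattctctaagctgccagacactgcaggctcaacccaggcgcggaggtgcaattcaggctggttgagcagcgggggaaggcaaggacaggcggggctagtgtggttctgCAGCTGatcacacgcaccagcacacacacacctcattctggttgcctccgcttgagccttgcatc
Kcnj5: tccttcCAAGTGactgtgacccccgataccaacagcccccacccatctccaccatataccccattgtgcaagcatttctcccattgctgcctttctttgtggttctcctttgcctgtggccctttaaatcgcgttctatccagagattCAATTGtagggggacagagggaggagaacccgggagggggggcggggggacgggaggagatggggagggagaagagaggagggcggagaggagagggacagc
Kcnj8: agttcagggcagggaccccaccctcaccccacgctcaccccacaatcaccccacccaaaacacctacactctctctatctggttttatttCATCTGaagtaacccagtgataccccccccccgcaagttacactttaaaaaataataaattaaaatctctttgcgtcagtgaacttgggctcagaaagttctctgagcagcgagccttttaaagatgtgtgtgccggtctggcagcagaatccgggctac
Kcne3: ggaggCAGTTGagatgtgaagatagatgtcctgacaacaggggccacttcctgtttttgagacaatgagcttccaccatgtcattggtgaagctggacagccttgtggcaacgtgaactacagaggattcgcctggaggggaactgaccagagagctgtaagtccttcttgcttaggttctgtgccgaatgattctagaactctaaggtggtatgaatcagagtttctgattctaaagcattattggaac
The Kcnj3 stretch holds 1 E-box, CAGCTG, whose first base lies 65 bases before the start. Kcnj5 holds CAAGTG 244 and CAATTG 102 bases before its start, Kcnj8 holds CATCTG at 160 and Kcne3 holds CAGTTG at 245. The table held 28 of the 40 members, and 22 of these (78.6%) had at least 1 CANNTG in this window, against 66.0% of 27025 genes. The form CAGCTG was in 7 of 28 (25.0%), against 12.8%. CAGGTG, read on both strands and one of the forms of CANNTG, was in 10 of 28 (35.7%), against 17.1%. Kcnd2, Kcnh2, Kcna3, Kcnn3, Kcnmb3 and Kcnmb4os2 had none of these letters in the window. These matches describe sequence only.

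The levels of the targeted genes went with the labels in part: Id1 was at 8.14 in WT, 8.10 in Id control 1, 6.41 in Id control 2 and 6.48 in Id cKO. Id cKO was thus near Id control 2, although its floxed Id1 allele is kept where Cre does not act. For Id3 the WT level was 7.18, the Id control levels 5.02 and 7.32 and the Id cKO level 4.69. The lost Id3 allele of Id control 2 did not show as a level below WT. Where these probe sets lie in the genes, and so whether they cover what was deleted, is unknown here. The arrays were on different scales, the median of all probe sets being 5.73 to 5.83 on the 4 arrays of the first set and 4.45 and 4.51 on the incubated pair. Levels are therefore given as deposited within each set, and across the sets after quantile normalization of all 6 arrays. Heart muscle markers were high everywhere, with a mean over 6 genes of 13.31 in WT, 13.41 and 13.33 in Id control 1 and 2 and 13.22 in Id cKO, and ventricular markers averaged 10.17, 10.28, 10.18 and 10.07 over 4 genes. Atrial muscle markers set Id control 2 apart, with a mean over the 6 compared genes of 10.21 against 6.58 in WT, 6.65 in Id control 1 and 7.21 in Id cKO, and 5 of the 6 were at least 2-fold above Id control 1. Adipocyte markers did the same (7.92 in Id control 2, 6.54 to 6.72 on the other 3 arrays). Endothelial markers averaged 8.94, 9.02, 9.09 and 9.56 in the order WT, Id control 1, Id control 2, Id cKO, smooth muscle and pericyte markers 8.12, 8.55, 8.81 and 8.51, fibroblast markers 8.57, 9.04, 9.84 and 9.22, and macrophage markers 7.21, 7.45, 7.48 and 6.90. Red cell and platelet markers averaged 7.81 in WT and 6.24 to 6.71 elsewhere in that set, and the 2 nerve and Schwann cell genes above the limit 6.23 in WT and 5.98 to 6.03. Xist was low and Eif2s3y high in WT and in the incubated pair, the male pattern, and the reverse held for the Id controls and Id cKO. WT, Id control 2 and Id cKO share a date code in the labels, Id control 1 has a code of its own, and so has the pair. In whole-heart RNA, fewer cells of a type and less RNA per cell cannot be told apart.

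Among the inward rectifiers, the acetylcholine-activated pair of subunits was lower in the Id cKO heart. Kcnj3, a pore subunit of the channel through which the vagus slows the heart, was at 8.58 in WT, 8.99 in Id control 1, 9.28 in Id control 2 and 7.03 in Id cKO. The Id cKO value lay below all 3 other arrays, 2.91-fold below WT and 4.28-fold below the mean of Id control. It was 1 of 2 potassium channel genes at least 2-fold from WT, where 3.12% of all genes were (2.16% higher and 0.957% lower), and 1 of 2 at least 2-fold from both Id control arrays, where 1.09% were (0.675% higher and 0.419% lower). With WT and both Id controls required together, the same 2 genes, Kcnj3 and Kcne3, were left, and 0.948% of all genes met that (0.641% higher and 0.307% lower). In limma over the 6 arrays, in which only the Id control pair gives a residual degree of freedom and lone arrays are assumed to vary like it, the difference from Id control was -2.10 ± 0.18 (limma SE), adjusted p = 0.131, which did not pass 0.05.

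Kcnj5, the other subunit of the same channel, was at 8.06 in WT, 8.64 in Id control 1, 8.70 in Id control 2 and 7.72 in Id cKO. The Id control arrays lay above WT, by 0.59 and 0.64, and Id cKO below it by 0.33 on the log2 scale, so the Id cKO value was the lowest of the 4 and nearer to WT than to the Id controls. Against Id control the difference was -0.95 ± 0.14 (limma SE), adjusted p = 0.218. Both genes are richly expressed in atrial muscle, and the atrial markers were measured on the same arrays. Myl7, the atrial regulatory light chain, was at 5.28 in WT, 5.31 in Id control 1, 12.27 in Id control 2 and 5.38 in Id cKO, and the atrial calcium pump regulator Sln was at 5.18 in WT, 4.74 in Id control 1, 7.13 in Id control 2 and 4.70 in Id cKO. Nppa, an atrial gene that the strained ventricle also makes, was at 10.29 in WT, 11.30 in Id control 1, 13.71 in Id control 2 and 14.03 in Id cKO. Over the 6 atrial markers compared, Id cKO was the highest array for Nppa and the lowest for Sln. Their mean was 6.58 in WT, 6.65 in Id control 1 and 7.21 in Id cKO. Most of its rise in Id cKO came from Nppa, at 3.73 above WT. The other compared markers ran from -0.48 (Sln) to 0.62 (Dkk3) against WT. The part of atrial tissue in the Kcnj3 and Kcnj5 differences was not tested. In the comparison with WT the sex pattern and the genotype cannot be told apart, whereas both Id controls share the pattern of Id cKO.

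**Figure D1:**
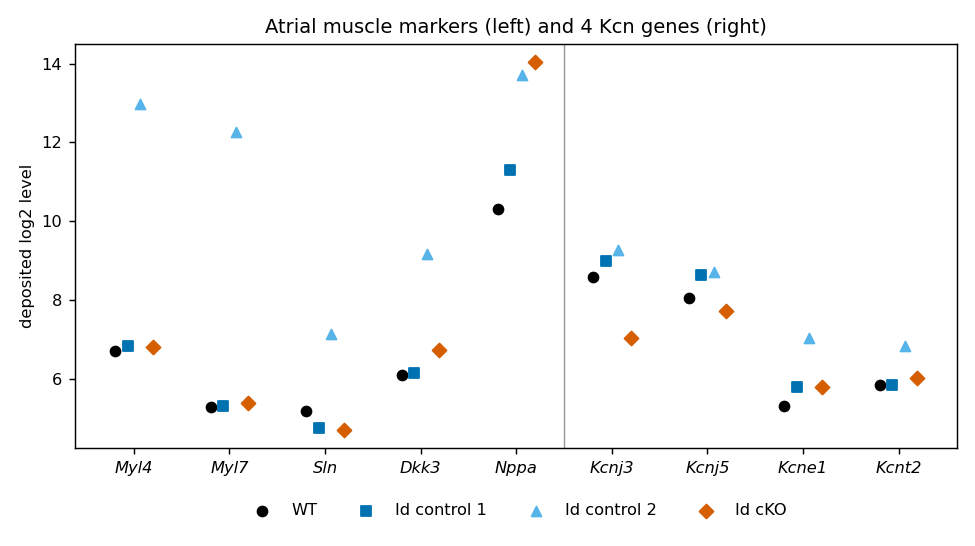
Deposited log2 levels of 5 atrial muscle markers (left of the line) and 4 potassium channel genes (right), 1 point per array for WT, Id control 1, Id control 2 and Id cKO. Id control 2 stands far above the other arrays for Myl4 and Myl7 (12.97 and 12.27) and above them for Kcne1 and Kcnt2 (7.04 and 6.82), whereas Kcnj3 is lowest in Id cKO (7.03) and between 8.58 and 9.28 on the other arrays.

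The rectifiers of the resting potential differed less. Kcnj2, the main pore of the resting inward rectifier current of ventricular muscle, was at 8.12 in WT, 8.24 in Id control 1, 8.25 in Id control 2 and 7.80 in Id cKO. Its partner Kcnj12 was at 7.62 in WT, 7.68 in Id control 1, 7.77 in Id control 2 and 7.47 in Id cKO. Id cKO was the lowest of the 4 arrays for both, with limma differences from Id control of -0.45 ± 0.14 (SE) and -0.25 ± 0.14 and adjusted p of 0.344 and 0.529. Kcnj14, a related rectifier, was at 6.29 in WT, 5.69 in Id control 1, 5.80 in Id control 2 and 6.07 in Id cKO, highest in WT.

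The 2 pore genes of ATP-sensitive channels, which open when ATP falls, went opposite ways. Kcnj11, the pore in heart muscle, was at 9.23 in WT, 9.60 in Id control 1, 9.42 in Id control 2 and 8.99 in Id cKO, lowest in Id cKO. Kcnj8, the pore in vascular smooth muscle and pericytes, was at 7.92 in WT, 8.28 in Id control 1, 8.12 in Id control 2 and 8.84 in Id cKO. Here Id cKO was the highest array, by 0.92 over WT and by 0.56 and 0.73 over Id control 1 and 2, under 2-fold in each case. The limma differences from Id control were -0.53 ± 0.16 (limma SE), adjusted p = 0.335 for Kcnj11, and 0.64 ± 0.16 (limma SE), adjusted p = 0.286 for Kcnj8. Of the sulfonylurea receptors that complete these channels, Abcc9 was at 11.04 in WT, 11.40 in Id control 1, 10.56 in Id control 2 and 10.53 in Id cKO, and Abcc8 was at 7.93 in WT, 8.34 in Id control 1, 8.60 in Id control 2 and 8.15 in Id cKO. Neither receptor was highest in Id cKO. Of the 8 smooth muscle and pericyte markers, 4 were highest in Id cKO like Kcnj8, and these were Cspg4 (6.86 in WT and 7.93 in Id cKO), Pdgfrb (8.78 and 9.70), Notch3 (7.87 and 8.34) and Rgs5 (11.02 and 11.03). The other markers, Myh11, Acta2, Tagln and Cnn1, were highest in Id control 2, and Acta2 was at 10.09 in Id cKO against 11.10 and 11.33 in Id control 1 and 2 and 9.81 in WT, at least 2-fold below both Id controls. Their part in the Kcnj8 difference was not tested.

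The genes of the transient outward current, which shapes the early repolarisation of the mouse ventricle, were lower in Id cKO in their ventricular form. Kcnd2, its main pore there, was at 8.71 in WT, 8.88 in Id control 1, 8.80 in Id control 2 and 8.10 in Id cKO. Id cKO lay below each of the 3 others, which were close together, with differences of -0.61 from WT and -0.77 and -0.70 from Id control 1 and 2. Kcnip2, the calcium-binding subunit that brings this pore to the membrane, was at 10.01 in WT, 10.12 in Id control 1, 9.96 in Id control 2 and 9.54 in Id cKO, again with the 3 others close together. Kcnd3, the related pore, was at 6.84 in WT, 7.05 in Id control 1, 6.59 in Id control 2 and 6.60 in Id cKO, so that Id cKO and Id control 2 were level. In limma the difference of Id cKO from Id control was -0.73 ± 0.14 (limma SE), adjusted p = 0.249 for Kcnd2, and -0.50 ± 0.15 (limma SE), adjusted p = 0.345 for Kcnip2. Kcnd3os, the transcript opposite Kcnd3, was at 8.14 in WT, 7.63 in Id control 1, 7.71 in Id control 2 and 7.73 in Id cKO, highest in WT. The other opposite-strand transcript, Kcnmb4os2, was at 6.08 in WT, 5.63 in Id control 1, 5.69 in Id control 2 and 5.93 in Id cKO, also highest in WT.

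Among the pores of later repolarisation, Kcnh2, which carries the rapid delayed rectifier current, was at 8.72 in WT, 9.07 in Id control 1, 8.90 in Id control 2 and 8.17 in Id cKO. Id cKO was the lowest array, and the difference from Id control was -0.81 ± 0.16 (limma SE), adjusted p = 0.249. Kcnq1, the pore of the slow delayed rectifier, was at 8.38 in WT, 8.86 in Id control 1, 8.47 in Id control 2 and 8.55 in Id cKO, with Id cKO between the 2 Id controls. Kcna5, a pore of the ultrarapid current, was at 7.44 in WT, 6.91 in Id control 1, 6.63 in Id control 2 and 7.08 in Id cKO, highest in WT and lowest in Id control 2. Kcnv2, a silent subunit that alters other voltage-gated pores, was at 6.86 in WT, 7.25 in Id control 1, 6.62 in Id control 2 and 6.05 in Id cKO; Id cKO was 2-fold below Id control 1 but not Id control 2, and the limma difference was -0.89 ± 0.30 (limma SE), adjusted p = 0.361. Kcna4 did not reach 6.

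**Figure D2:**
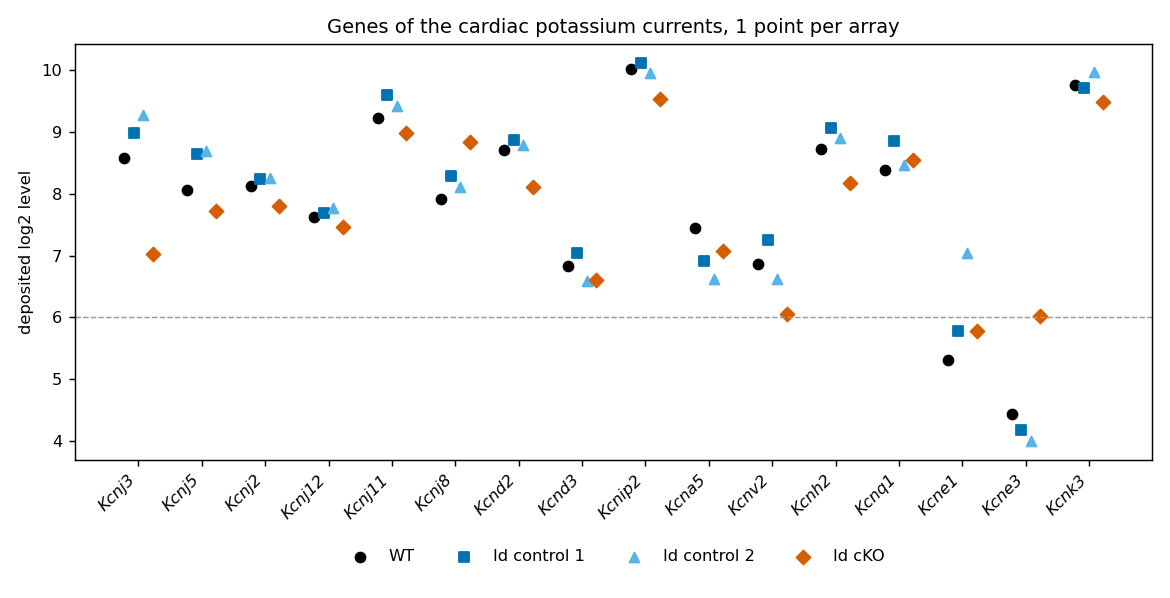
Deposited log2 levels of 16 genes of the cardiac potassium currents, 1 point per array for WT, Id control 1, Id control 2 and Id cKO; the dashed line is the limit of 6. Id cKO is the lowest point for Kcnj3, Kcnj5, Kcnj2, Kcnj12, Kcnj11, Kcnd2, Kcnip2, Kcnv2, Kcnh2 and Kcnk3 and the highest for Kcnj8 and Kcne3.

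The auxiliary subunits of the Kcne family, single-span proteins that change how fast a pore opens, each followed a pattern of their own. Kcne3 was at 4.43 in WT, 4.17 in Id control 1, 4.01 in Id control 2 and 6.02 in Id cKO. It was 2.99-fold above WT and 3.80-fold above the mean of Id control, and its limma difference from Id control was 1.93 ± 0.15 (limma SE), adjusted p = 0.118, the smallest adjusted p among the 40. It reached 6 on the Id cKO array alone, where it lay just past the limit. Kcne1, the subunit that slows Kcnq1, was at 5.32 in WT, 5.79 in Id control 1, 7.04 in Id control 2 and 5.79 in Id cKO. The Id control 2 value was 2.39-fold above Id control 1, and Kcne1 was the potassium channel gene 2-fold apart between these arrays, where 1.18% of all genes were (0.171% higher and 1.01% lower in Id control 1). Id control 2 is also the array with high atrial markers, and the part of those in the Kcne1 value was not tested. Kcne4, which can silence Kcnq1, was at 5.93 in WT, 5.65 in Id control 1, 5.79 in Id control 2 and 6.08 in Id cKO, with the highest value in Id cKO.

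Among tandem-pore and ion-activated channels, 0 were 2-fold apart in this set, although Kcnt2 came near it between the Id controls. Of all genes, 3.12% were 2-fold apart between Id cKO and WT and 1.09% between Id cKO and both Id controls. Between Id control and WT 0.205% were, and between the Id controls 1.18%. Kcnk3, an acid-sensitive leak channel of heart muscle, was at 9.77 in WT, 9.72 in Id control 1, 9.97 in Id control 2 and 9.49 in Id cKO. Kcnk2, a stretch-sensitive one, was at 6.16 in WT, 6.42 in Id control 1, 5.96 in Id control 2 and 6.26 in Id cKO. Kcnk15, which forms little current alone, was at 7.09 in WT, 6.72 in Id control 1, 6.69 in Id control 2 and 6.95 in Id cKO, higher in WT and Id cKO than in either Id control. Across all 6 tandem-pore genes, the difference of Id cKO from the mean of Id control ran from -0.35 to 0.25. Among calcium-activated channels of small conductance, Kcnn1 was at 7.12 in WT, 6.99 in Id control 1, 7.09 in Id control 2 and 6.71 in Id cKO, Kcnn2 was at 7.29 in WT, 7.69 in Id control 1, 7.16 in Id control 2 and 6.98 in Id cKO, and Kcnn3 was at 5.43 in WT, 5.71 in Id control 1, 6.02 in Id control 2 and 6.03 in Id cKO. Kcnn1 and Kcnn2 were lowest in Id cKO, the latter with 0.53 between the 2 Id controls. Kcnt2, a sodium-activated channel, was at 5.84 in WT, 5.85 in Id control 1, 6.82 in Id control 2 and 6.01 in Id cKO, high in Id control 2. Kcnmb3, an auxiliary subunit of the large-conductance channel, was at 6.27 in WT, 5.93 in Id control 1, 5.86 in Id control 2 and 6.22 in Id cKO, and again WT and Id cKO were above both Id controls.

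Over the 40 genes, 31 were lower in Id cKO than in WT and 9 higher, with a median difference of -0.24. Of all genes tested 49.3% were lower, and their median was 0.0038. Kcna3, Kcnk4 and Kcnmb4os2, which reached 6 in WT alone, are among the 31, so their direction is partly built into the choice. The same holds for Kcne3 and Kcne4 among the 9. The inward rectifiers had 6 of 7 genes lower (median -0.24), the voltage-gated pores 14 of 16 (-0.26), the tandem-pore genes 5 of 6 (-0.21), the ion-activated genes 3 of 5 (-0.049) and the auxiliary subunits 1 of 4 (0.31). Against the mean of Id control the balance was closer: 24 of 40 were lower and the median was -0.10, where 54.8% of all genes were lower with a median of -0.029. Here the inward rectifiers had 5 of 7 lower and a median of -0.45, against 11 of 16 and -0.10 for the voltage-gated pores. Id cKO was the lowest of the 4 arrays for 16 of the 40 genes (40%, against 31.1% of all genes) and the highest for 5 (12.5%, against 26.0%), namely Kcna7, Kcne3, Kcne4, Kcnj8 and Kcnn3. In limma 0 of the 40 passed an adjusted p of 0.05 between Id cKO and Id control, where 0.0171% of all genes did, and 10 had an unadjusted p under 0.05, 2 higher and 8 lower, where 12.9% of all genes did (5.81% higher and 7.1% lower). The median difference from Id control was 0.011 without Id control 1 and -0.11 without Id control 2, so Id control 1 decided its sign. It was -0.025 without the limit of 6 and -0.40 with a limit of 7.

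**Figure D3:**
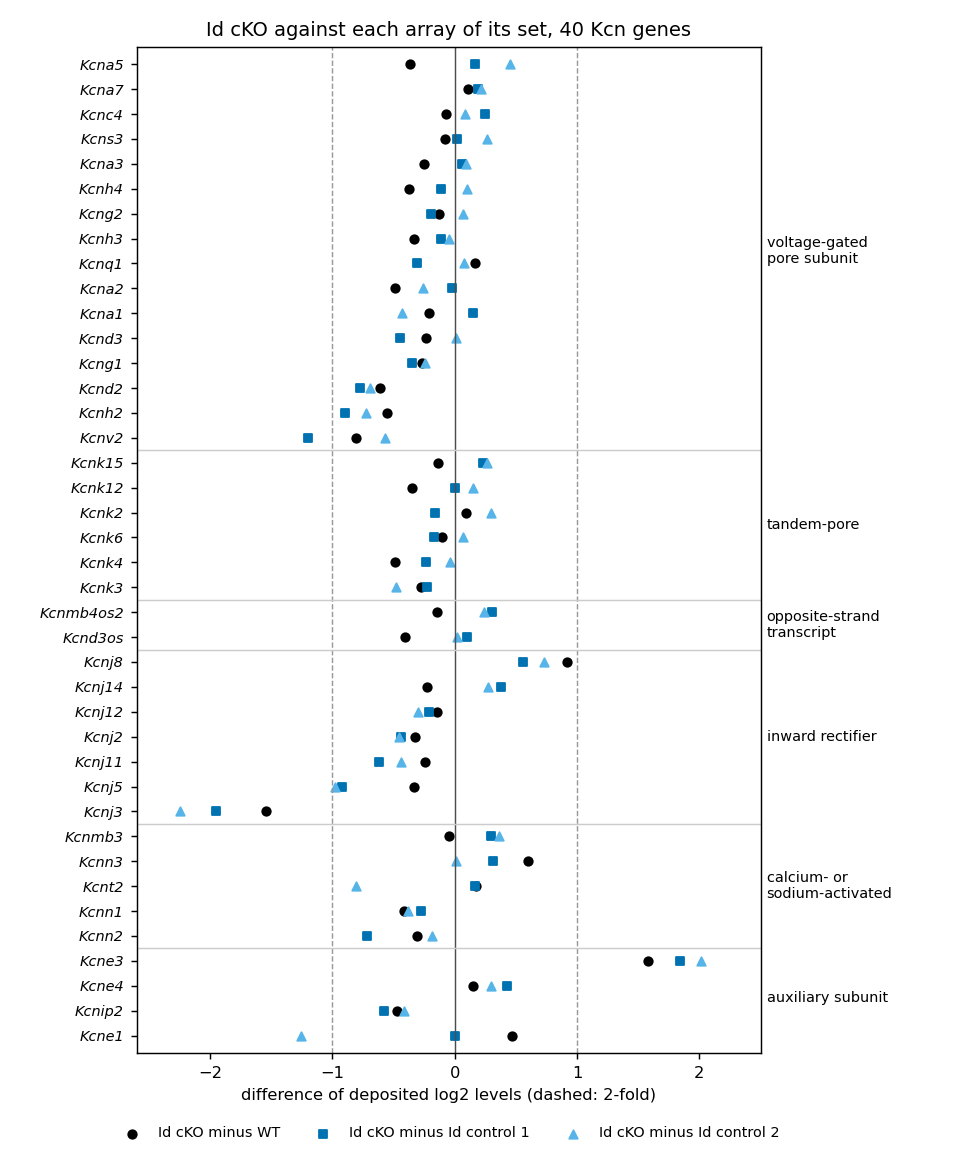
Difference of the Id cKO log2 level from WT (circles), Id control 1 (squares) and Id control 2 (triangles) for each of the 40 genes, grouped by class; dashed lines mark 2-fold. Kcnj3 lies beyond 2-fold on the lower side and Kcne3 on the higher side against all 3 arrays, and Kcne1 and Kcnv2 pass it against 1 Id control array each.

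Between Id control and WT, 0 of the 40 genes were 2-fold apart on both Id control arrays, where 0.205% of all genes were (0.102% in each direction). Kcnj5 came nearest on the higher side of both, and Kcna5, at -0.53 and -0.82 from WT, and Kcnj14, at -0.60 and -0.49, on the lower. In limma 0 passed an adjusted p of 0.05 (0.0% of all genes), with 8 at an unadjusted p under 0.05, 2 higher and 6 lower, where 6.93% of all genes were (4.68% higher and 2.25% lower). The median of the 40 was -0.055, against 0.055 for all genes. Kcna3, Kcnk4 and Kcnmb4os2, chosen through their WT level alone, were below WT on both Id control arrays. With each array centred on its median, 17 of the 40 were lower and not 22, and the medians were 0.038 and 0.15. Date code and genotype of Id control 1, the atrial markers of Id control 2, and the sex pattern of WT differ along with this comparison and cannot be told apart in it.

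Within the incubated pair, treated and untreated Id cKO hearts had no potassium channel gene 2-fold apart, where 1.1% of all genes were (0.547% higher and 0.555% lower). The largest differences were those of Kcnk3, at 7.45 with IGFBP3 and 8.10 without, Kcng1, a silent subunit, at 5.37 and 6.00, and Kcna7, a voltage-gated pore of muscle, at 4.92 and 5.48. Of the 40 genes, 31 were lower in the treated heart and 9 higher, with a median difference of -0.23, where 49.1% of all genes were lower and their median was 0.00. All 6 tandem-pore genes (median -0.50) and 14 of 16 voltage-gated pores (-0.32) were lower, and 4 of 7 inward rectifiers (-0.12). Of the genes that stood out in Id cKO, Kcnj3 was at 5.67 and 5.79, Kcnj5 at 5.58 and 5.41, Kcnd2 at 5.45 and 5.62, and Kcne3, with the largest difference on the higher side, at 4.82 and 4.39. Each side is 1 array, so these differences have no replicate check.

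**Figure D4:**
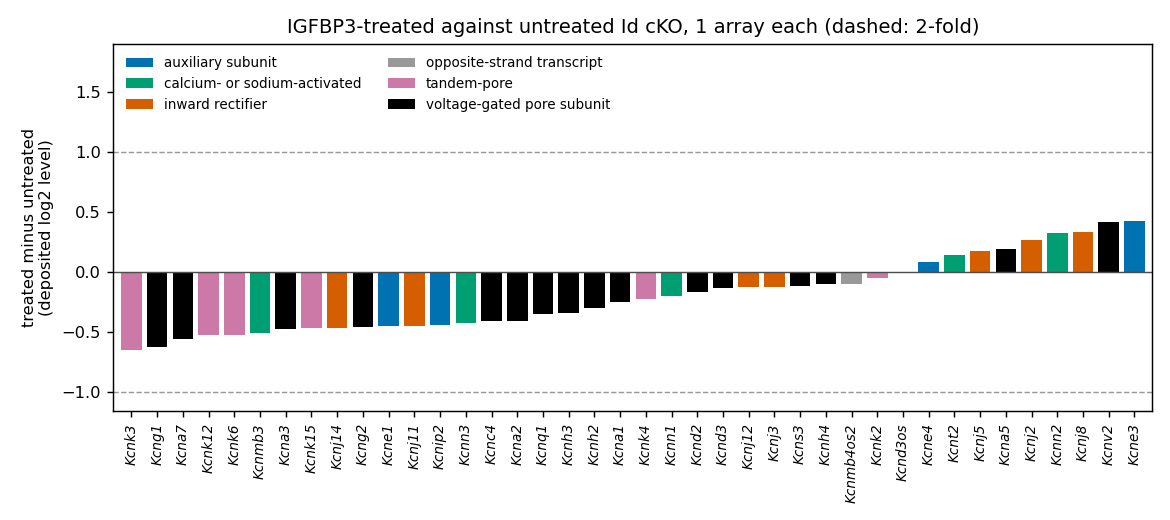
Treated minus untreated Id cKO, as the difference of deposited log2 levels, for each of the 40 genes, coloured by class; each bar compares 1 array with 1 array and dashed lines mark 2-fold. Bars run from -0.65 (Kcnk3) to 0.43 (Kcne3), none reaches 2-fold, and 31 of 40 lie below 0.

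Quantile normalization put all 6 arrays on a common scale, so that the 3 hearts of Id cKO genotype could be set beside the other 3. On that scale Kcnj3 was at 8.23, 8.56 and 8.83 in WT, Id control 1 and Id control 2, against 6.62, 6.47 and 6.60 in the Id cKO, treated and untreated hearts. The 3 Id cKO genotype values were within 0.15 of each other and at least 1.61 below the rest. Kcne3 was at 3.94, 3.76 and 3.67 in WT, Id control 1 and Id control 2, against 5.59, 5.68 and 5.22 in the Id cKO, treated and untreated hearts, a gap of 1.27 in the other direction. These were the 2 of 40 genes with a gap of at least 2-fold, where 0.478% of all genes had one (0.333% higher and 0.145% lower). Since the Id cKO array is part of both counts, the incubated pair is what this comparison adds. As deposited, Kcne3 was at 4.82 with IGFBP3 and 4.39 without, beside 4.43 in WT, so its place in the pair rests on the rescaling.

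Without a size limit, the 2 sides did not overlap for 16 of 40 genes (40%), 13 lower and 3 higher in the Id cKO genotype, where 30.0% of all genes were apart, 17.3% lower and 12.7% higher. Several of the 13 were lower still in the incubated pair than in Id cKO. Kcnd2 was at 8.36, 8.45 and 8.34 in WT and the Id controls, 7.72 in Id cKO, then 6.27 with IGFBP3 and 6.43 without. Kcnj5 was at 7.71, 8.22 and 8.25, then 7.33, then 6.39 and 6.21. Kcnip2 was at 9.65, 9.70 and 9.51, then 9.15, then 7.99 and 8.49. For these 3 genes the Id cKO array lay between the controls and the pair, which differs from Id cKO in several ways given below. Kcnj2, Kcnj12, Kcnn2 and Kcnk3 kept that order, as did Kcnj3, Kcna2 and Kcnh3. For Kcnj3 the untreated heart was nearly level with Id cKO (6.60 against 6.62). For Kcnh2 both pair arrays were above Id cKO (7.93 with IGFBP3 and 8.28 without, against 7.79). The same held for Kcnn1 (6.36 and 6.56, against 6.29). For Kcnv2 the treated heart was above Id cKO and the untreated heart below it (5.93 and 5.49, against 5.62). The gap was smaller than the difference between the 2 Id controls for Kcna2, Kcnh2, Kcnk3, Kcnn1, Kcnn2 and Kcnv2. With arrays centred on their medians Kcnh2 overlapped, and Kcnmb3 was apart on the higher side.

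The genes higher in the Id cKO genotype were Kcne3, Kcne4 and Kcnj8. Kcnj8 was at 7.57, 7.86 and 7.67 in WT and the Id controls, then 8.45, 8.92 and 8.61 in the Id cKO, treated and untreated hearts. Kcne4 was set apart by the pair: it was at 5.45, 5.24, 5.40 and 5.66 in WT, Id control 1, Id control 2 and Id cKO, but 7.97 with IGFBP3 and 7.93 without it, a gap of 2.27. Kcnd2, with a gap of 1.29 in the other direction, was the only other member at least 2-fold apart between the pair and the 4 remaining arrays, where 1.43% of all genes were (1.02% higher and 0.41% lower). The pair differs from the Id cKO array in incubation, date code, sex pattern and deposited scale. These cannot be told apart for Kcne4, nor for Kcnd2, Kcnj5 and Kcnip2. The pair's values for Kcnj3 and Kcne3 carry the same differences. Heart muscle markers were also lower in the pair on this scale, with a mean of 12.75 and 12.59 against 13.00 in Id cKO and 13.11 to 13.24 on the other 3, and 5 other lists were higher. Fibroblast markers averaged 9.65 and 9.63 in the pair against 8.21 to 9.41 on the other 4 arrays, endothelial markers 9.64 and 9.35 against 8.58 to 9.16, smooth muscle and pericyte markers 8.58 and 8.57 against 7.74 to 8.38, macrophage markers 7.42 and 7.54 against 6.49 to 7.05, and red cell and platelet markers 8.12 and 7.76 against 5.81 to 7.42. The part of these cells, heart muscle included, in the Kcnj3, Kcne3, Kcne4, Kcnj8, Kcnd2, Kcnj5 and Kcnip2 values was not tested.

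**Figure D5:**
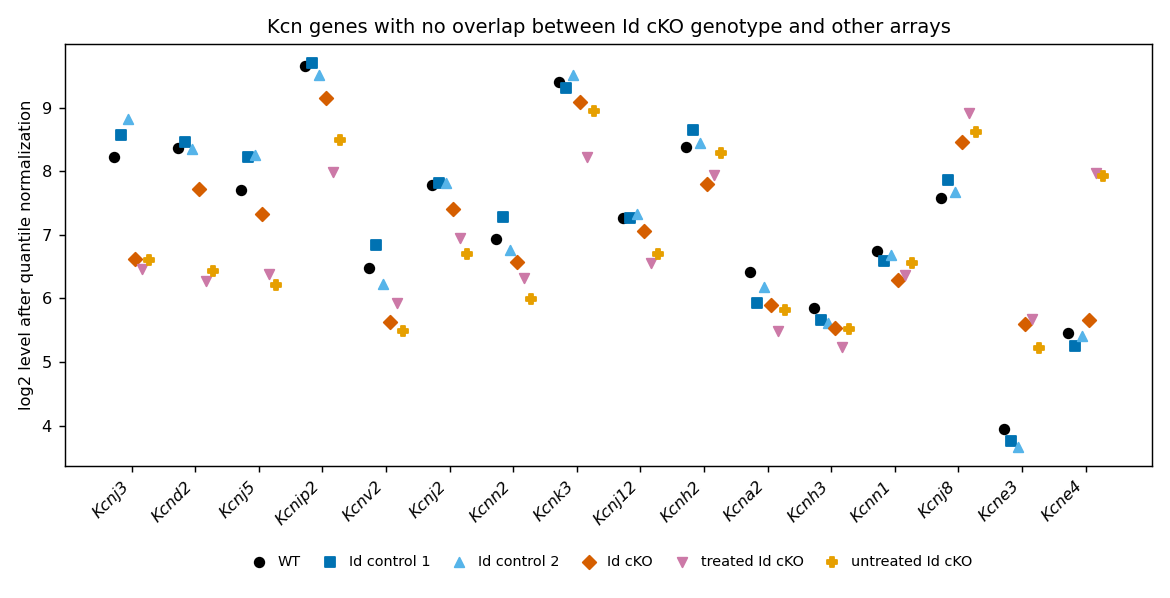
Log2 levels after quantile normalization of all 6 arrays for the 16 potassium channel genes whose 3 Id cKO genotype arrays do not overlap the other 3, ordered by the difference between the sides; 1 point per array. Kcnj3 and Kcne3 have the widest gaps (1.61 and 1.27), and for Kcnd2, Kcnj5, Kcnip2 and Kcne4 the incubated pair lies farther out than Id cKO.

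Genes that work with these channels were read from lists outside the Kcn family. Of 20 partner and current genes, 17 had a probe set of 1 symbol and 13 reached 6. Against WT 0 of the 13 were 2-fold higher in Id cKO, where 2.16% of all genes were, and 1 was lower, where 0.957% were. That gene was Lrrc52, an auxiliary subunit of the Slo channel family. It was at 7.30 in WT, 6.32 in Id control 1, 7.84 in Id control 2 and 5.48 in Id cKO. Against both Id controls 0 of the 13 were 2-fold apart, where 1.09% of all genes were. After quantile normalization 5 of the 13 were lower in all 3 Id cKO genotype arrays than in the rest (Hcn4, Chrm2, Rgs6, Ank2 and Cav3), where 17.3% of all genes were, and 1 was higher (Rgs4), where 12.7% were. Hcn4, the pacemaker channel, was at 6.83 in WT, 6.95 in Id control 1, 6.63 in Id control 2 and 5.98 in Id cKO. Chrm2, the muscarinic receptor that opens the Kcnj3 and Kcnj5 channel, was at 10.26 in WT, 10.75 in Id control 1, 10.50 in Id control 2 and 10.23 in Id cKO, and Rgs6, which ends that signal, was at 7.38 in WT, 7.91 in Id control 1, 7.69 in Id control 2 and 6.93 in Id cKO. Id cKO was the lowest array for all 3, by less than 2-fold.

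Of 9 sodium-potassium pump genes 6 were named and reached 6, and 2 of them were at least 2-fold above WT in Id cKO, where 2.16% of all genes were. Of these, 1 was also 2-fold above both Id controls, where 0.675% of all genes were. That gene was Fxyd6, a small regulator of the pump, at 8.52 in WT, 8.64 in Id control 1, 8.63 in Id control 2 and 10.75 in Id cKO. Fxyd5, another, was at 7.87 in WT, 8.24 in Id control 1, 8.81 in Id control 2 and 9.58 in Id cKO. Of 10 transcription factors tied to cardiac potassium channel genes 9 were named and reached 6. Among them Klf15, which drives Kcnip2, was at 9.35 in WT, 8.72 in Id control 1, 8.67 in Id control 2 and 7.95 in Id cKO. It was 2-fold lower in Id cKO than in WT, where 0.957% of all genes were, but not than the Id controls. None of the 9 was 2-fold from both Id controls, where 1.09% of all genes were. Irx5, a repressor of Kcnd2, was at 7.05 in WT, 7.01 in Id control 1, 6.78 in Id control 2 and 6.71 in Id cKO. Tbx5 was at 8.05 in WT, 8.16 in Id control 1, 9.07 in Id control 2 and 7.51 in Id cKO. Klf15, Irx5, Tbx5, Hey2 and Nkx2-5 were lowest in Id cKO, where 31.1% of all genes were. For Nkx2-5 this was 9.29 against 9.30 in Id control 1. Gata4 was highest in Id cKO, at 9.97 against 9.54 to 9.79 on the other arrays. Irx3, Irx4 and Nr2f2 were neither lowest nor highest there. After quantile normalization Klf15 was higher in the pair (8.00 with IGFBP3, 8.41 without) than in Id cKO (7.56), whereas Kcnip2 was lower. A link between them was not tested.

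Of the 52 potassium channel genes that stayed under 6 on all 4 arrays of the first set, 0 were 2-fold apart in the comparisons of deposited levels: with all 92 genes taken, Kcnj3 and Kcne3 remained the 2 genes counted in Id cKO against WT and against Id control, and Kcne1 the 1 between the Id controls. At levels that low a difference may not be detectable, and no share over all genes under 6 is given beside this count.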

How the data were processed

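Per the submitters' processing notes, the authors made the log2 values with Expression Console from Affymetrix, by RMA (background correction, alignment of array distributions, summary per probe set); no version or build is stated there. The deposited table holds 35557 probe sets, of which 21789 carried 1 gene symbol in the platform annotation, 1621 several and 12147 none. Differences are of deposited log2 values, and a gene was counted at 2-fold, from both Id control arrays where that group enters. limma (version 3.58.1, R 4.3.3) was fitted over 6 arrays in 5 groups with Benjamini-Hochberg adjustment over 11708 genes, and tested on simulated data. Quantile normalization used all probe sets. Members, gene lists and tests were chosen with earlier results of these data known. Named genes were the pore and subunit genes of the main cardiac currents, members 2-fold apart in a comparison, and in each class those farthest from Id control; opposite-strand transcripts were set apart from the pore genes. Alternatives were other normalizations, floors, probe set rules, fold limits and leaving out each Id control array. The number of arrays limits the precision.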

Additional observations from a re-analysis of the deposited data

How the results depend on the processing

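Kcnj3 and Kcne3 were the genes counted for Id cKO against WT, against Id control and against all 3 arrays under quantile normalization, median centring, no floor and the mean of probe sets. With a floor of 7, which leaves 20 members and removes Kcne3, each count was 1 (Kcnj3). A 1.5-fold limit gave 6 genes against WT, 5 against Id control, 1 (Kcnj5) for Id control against WT, 3 between the Id controls and 2 (Kcnk3, Kcng1) for treated against untreated. limma called 0 for Id cKO against WT, and 0 under each alternative for the comparisons with Id control. Leaving out 1 Id control array gave 0 to 1 genes for Id control against WT, the 1 being Kcne1 without replicate 1. Against Id control it gave 3 genes either way, adding Kcne1 without replicate 1 and Kcnv2 without replicate 2. The count without overlap was 27 of 92 genes without a floor, and 18 without Id control replicate 1 and 21 without replicate 2. No share over all genes is given for the fold and overlap counts under these alternatives, so they show only how the counts move.

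The medians moved more. Id cKO minus WT was -0.18 after median centring, -0.13 without a floor and -0.32 with a floor of 7. Id cKO minus Id control was -0.025 and -0.40 with these floors, and ran from -0.109 (without Id control replicate 2) to 0.0114 (without replicate 1) with 1 Id control array left out. Id control minus WT was 0.038 after median centring and 0.115 with a floor of 7, and ran from -0.150 to -0.0206 with 1 array left out. Treated minus untreated was -0.17 after median centring and -0.15 with a floor of 7. The cause was not tested, apart from the number of genes, which a floor changes by construction. limma without 1 Id control array has no residual degrees of freedom, and limma between the Id control arrays was not run, since they give its spread. No paired analysis was possible because every group but Id control is 1 array, and the Id control arrays differ in genotype.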
